A study of Mus musculus with 8 samples.

Results

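The genes described here are 49 cell cycle and DNA replication genes, chosen by name and read through every probe set whose array annotation gives that symbol. They comprise 21 genes of S phase and replication and 28 of G2 and mitosis, among 18194 genes named on the array. Cyclin B1 (Ccnb1) was not analysed here. The other 48 (21 and 27) had 109 probe sets, and all 48 were among the 8764 genes that passed the filter, which asked for a log2 value of 5 or more on 2 or more arrays. Of these 48, Ncapg, Foxm1, Tyms and Rfc3 passed that filter in both wild type groups and were mostly or wholly below 5 in the knockout, so their place among the tested genes depended on their wild type level. Where a gene had several probe sets, the brightest on average over the arrays stands for it.

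The samples were dendritic cells sorted from spleen as CD8α+ or CD8α- cells. The donors were untreated female C57BL/6 mice, 10 weeks old by the sample labels and 8 to 10 weeks by the series description, either wild type or RAG2-/- on the same strain. RAG2 is needed to assemble antigen receptor genes, so RAG2-/- mice lack mature T and B lymphocytes. Total RNA was hybridised to 8 Affymetrix arrays, 2 for each of the 4 groups, and each probe set gave 1 log2 expression value per array. Replicates are numbered in the labels, which do not name separate animals, and a p-value here may therefore reflect no more than technical spread.

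Proliferating cells license their replication origins by loading the MCM helicase in G1, copy their DNA in S phase with polymerases, a sliding clamp and a supply of deoxynucleotides, and then enter mitosis under cyclin-dependent kinase 1. Transcription of the S phase genes is driven largely by E2F factors. That of the G2 and mitosis genes is controlled by DREAM and other MuvB complexes, with B-MYB and FOXM1, largely through a promoter element known as CHR. CCAAT is another element common in the promoters of G2 and mitosis genes. Conventional dendritic cells of the spleen arise from bone marrow precursors that seed the organ and still divide there a limited number of times.

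Promoter sequences of RefSeq (mouse build GRCm38.p6, 250 bases before and 50 after the annotated start) were on hand for 39 of the 48 genes, and 3 elements were counted in them on either strand. A CHR-type element (TTTGAA or TTCGAA) lay in 17 of 21 G2 and mitosis promoters (81%) and in 4 of 18 S phase promoters (22.2%). It lay in 14.2% of the 7197 tested genes with a promoter and in 19.4% of all 27025 genes with one. CCAAT lay in 18 of 21 (85.7%) and 12 of 18 (66.7%), against 39.2% of tested genes and 37.9% of all. An E2F-type site (TTTCCCGC, TTTCGCGC, TTTGCCGC or TTTGGCGC) lay in 3 of 21 (14.3%) G2 and mitosis promoters and 8 of 18 (44.4%) S phase promoters, against 4.46% and 2.32%. Copies of the E2F-type site, or of CCAAT, on opposite strands can overlap, as they do upstream of Mcm5, Mcm6 and Ube2c. No element contains another, and a match describes these letters only.

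The 250 bases upstream of 5 G2 and mitosis genes are shown because 4 of them (Ncapg, Cdk1, Ube2c and Kif11) were lower in the knockout in 1 or both subsets, as given below, whereas Top2a, which carries 4 CHR-type matches, was not called. Capitals mark the CHR-type, CCAAT and E2F-type matches, and overlapping matches run together. The sequences read 5′ to 3′ in the direction of transcription and lie at Ncapg chr5:45669675-45669924 (+ strand), Cdk1 chr10:69352913-69353162 (- strand), Ube2c chr2:164769679-164769928 (+ strand), Kif11 chr19:37376132-37376381 (+ strand) and Top2a chr11:99024190-99024439 (- strand).
Ncapg: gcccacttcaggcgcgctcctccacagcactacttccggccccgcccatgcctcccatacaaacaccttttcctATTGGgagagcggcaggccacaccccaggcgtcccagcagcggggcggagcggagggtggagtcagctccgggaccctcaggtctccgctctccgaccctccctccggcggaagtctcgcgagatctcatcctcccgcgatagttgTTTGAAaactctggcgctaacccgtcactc
Cdk1: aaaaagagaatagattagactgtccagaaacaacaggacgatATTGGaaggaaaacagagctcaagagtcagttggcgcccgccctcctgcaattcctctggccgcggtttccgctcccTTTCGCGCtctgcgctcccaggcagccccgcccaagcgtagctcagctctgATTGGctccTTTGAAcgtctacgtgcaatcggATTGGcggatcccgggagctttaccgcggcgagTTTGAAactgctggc
Ube2c: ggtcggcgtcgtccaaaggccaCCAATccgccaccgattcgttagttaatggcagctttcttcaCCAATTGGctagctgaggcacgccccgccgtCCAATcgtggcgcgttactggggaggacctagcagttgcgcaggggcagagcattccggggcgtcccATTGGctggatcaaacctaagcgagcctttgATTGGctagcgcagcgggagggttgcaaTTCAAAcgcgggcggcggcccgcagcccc
Kif11: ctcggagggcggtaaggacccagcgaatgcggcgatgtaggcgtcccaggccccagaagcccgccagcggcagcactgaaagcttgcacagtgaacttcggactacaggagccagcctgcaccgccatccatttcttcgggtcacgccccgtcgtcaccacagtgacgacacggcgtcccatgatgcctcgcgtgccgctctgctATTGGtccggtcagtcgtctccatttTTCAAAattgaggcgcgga
Top2a: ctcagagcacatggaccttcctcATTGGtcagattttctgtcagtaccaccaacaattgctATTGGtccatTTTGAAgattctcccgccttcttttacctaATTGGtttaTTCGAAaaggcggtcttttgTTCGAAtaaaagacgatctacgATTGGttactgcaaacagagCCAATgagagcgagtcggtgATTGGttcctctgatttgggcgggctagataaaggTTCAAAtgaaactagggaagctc

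For replication, the helicase genes Mcm5 and Mcm6 are shown for their paired E2F-type sites, beside the clamp gene Pcna, which held no match to these E2F-type letters in the window and showed no called difference. They lie at Mcm5 chr8:75109259-75109508 (+ strand), Mcm6 chr1:128359706-128359955 (- strand) and Pcna chr2:132253181-132253430 (- strand), with capitals as before.
Mcm5: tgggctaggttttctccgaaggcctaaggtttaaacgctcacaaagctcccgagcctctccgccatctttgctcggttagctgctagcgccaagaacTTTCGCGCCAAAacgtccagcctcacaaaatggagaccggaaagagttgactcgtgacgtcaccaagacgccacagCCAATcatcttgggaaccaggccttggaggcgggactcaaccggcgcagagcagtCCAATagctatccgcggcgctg
Mcm6: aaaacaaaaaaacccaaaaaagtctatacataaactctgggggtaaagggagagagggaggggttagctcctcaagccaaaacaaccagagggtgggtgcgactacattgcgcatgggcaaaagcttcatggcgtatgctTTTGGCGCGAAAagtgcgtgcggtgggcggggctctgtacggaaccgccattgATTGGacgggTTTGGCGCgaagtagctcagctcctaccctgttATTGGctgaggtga
Pcna: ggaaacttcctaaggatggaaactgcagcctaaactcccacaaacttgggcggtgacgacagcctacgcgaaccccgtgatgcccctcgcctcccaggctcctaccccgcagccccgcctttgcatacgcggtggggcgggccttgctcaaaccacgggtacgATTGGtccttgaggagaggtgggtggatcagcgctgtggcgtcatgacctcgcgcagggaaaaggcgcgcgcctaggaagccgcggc
Of the 9 S phase genes with a promoter that were called lower in the knockout in either subset, 4 held an E2F-type match (44.4%), and so did 4 of the 9 that were not called (44.4%).

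Transcripts of the targeted gene Rag2 lay below 5 on all 8 arrays, so they carry no information on the genotype. The dendritic markers Flt3, Itgax, Zbtb46 and Batf3 each read at least 10.27 on every array, and Cd8a separated the sorted subsets in both genotypes. Wild type and knockout arrays differed in more than genotype. Each knockout array had its lowest value, 2.233, at 18217 to 18893 probe sets, whereas each wild type array had its lowest value at a single probe set. The genotypes were thus evidently normalized apart, and an effect of that processing on any knockout to wild type difference cannot be told apart from one of genotype. The comparison of subsets within a genotype does not carry it.

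Cell cycle genes were lower in the knockout in both subsets, by a larger median in G2 and mitosis genes than in S phase genes, except that with median centring the S phase median in CD8α+ cells turned to 0.09. In CD8α- cells, 33 of the 48 were lower in the knockout at an adjusted p under 0.05 (limma, Benjamini-Hochberg over all genes tested), whereas 17.1% of all genes tested were lower and 40.5% were called in either direction. None was higher, by limma, by limma-trend with robust eBayes or at an unadjusted p under 0.05 (0 in each). They comprised 23 of 27 G2 and mitosis genes and 10 of 21 S phase genes. The median log2 change was -1.78 over the G2 and mitosis genes and -0.81 over the S phase genes, against 0.14 over all genes tested, and the difference between these groups of genes was not tested. Without the 4 genes that depended on their wild type level, 29 of 44 were lower.

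In CD8α+ cells, 23 of the 48 were lower in the knockout, whereas 16.1% of all genes tested were lower and 36.9% were called in either direction. By contrast 0 of the 48 were higher by limma, by limma-trend or at an unadjusted p under 0.05. They comprised 14 G2 and mitosis genes and 9 S phase genes. The medians were -1.49 and -0.59, against 0.09 over all genes tested. Without the same 4 genes, 19 of 44 were lower. There were 22 genes lower in both subsets (8 of S phase, 14 of G2 and mitosis), against 12.2% of all genes tested. On all 4 knockout arrays 32 of the 48 lay below all 4 wild type arrays (23 of 27 and 9 of 21), against 16.8% of all genes tested. Without the 4 genes that depended on their wild type level, 18 of 44 were lower in both subsets. Of the same 44, 28 lay below all wild type arrays on every knockout array. The 2 subset comparisons use different arrays of each genotype, but share the normalization noted above. In these bulk samples, fewer dividing cells and less of each transcript per cell cannot be told apart.

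The number of called genes depended on single arrays. In CD8α- cells it was 11 without wild type CD8α- replicate 1, 19 without wild type CD8α- replicate 2 and 21 without knockout CD8α- replicate 1. In CD8α+ cells it was 13 without wild type CD8α+ replicate 1, 14 without wild type CD8α+ replicate 2 and 13 without knockout CD8α+ replicate 2. Of the 33 calls in CD8α- cells, 11 held without each array in turn: Ncapg, Tyms, Foxm1, Aurkb, Smc2, Mcm5, Gins1, Cdc20, Mki67, Mcm6 and Smc4. Of the 23 in CD8α+ cells, 12 held: Ncapg, Tyms, Aurkb, Smc2, Mcm5, Ube2c, Gins1, Tpx2, Mki67, Bub1b, Rfc3 and Smc4. The other 22 and 11 calls were each lost without at least 1 array. Of the genes that held, Ncapg, Tyms, Foxm1 and Rfc3 depended on their wild type level to be tested. The median over all probe sets lay below 5 on every array. It was 2.33 to 2.38 on knockout arrays, near their lowest value of 2.233, and 2.97 to 3.06 on wild type arrays. Centring each array on that median moved the median change of all genes to 0.81 and 0.78 and left 19 and 11 genes lower. Mcm7, Cdc45 and Cdt1 were then called higher in CD8α- cells. The S phase medians were then -0.15 and 0.09 and the G2 and mitosis medians -1.12 and -0.81. With centring on the tested genes outside the cell cycle lists, 36 and 29 were lower and none was higher. Some of the genes named above were not called under another setting. With median centring these were Smc4 in both subsets (adjusted p = 0.179 and 0.303 from limma) and Rfc3 in CD8α+ cells (0.0821). With the mean of probe sets they were Smc2 and Mcm5 in both subsets and Cdc20 in CD8α- cells.

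**Figure D1:**
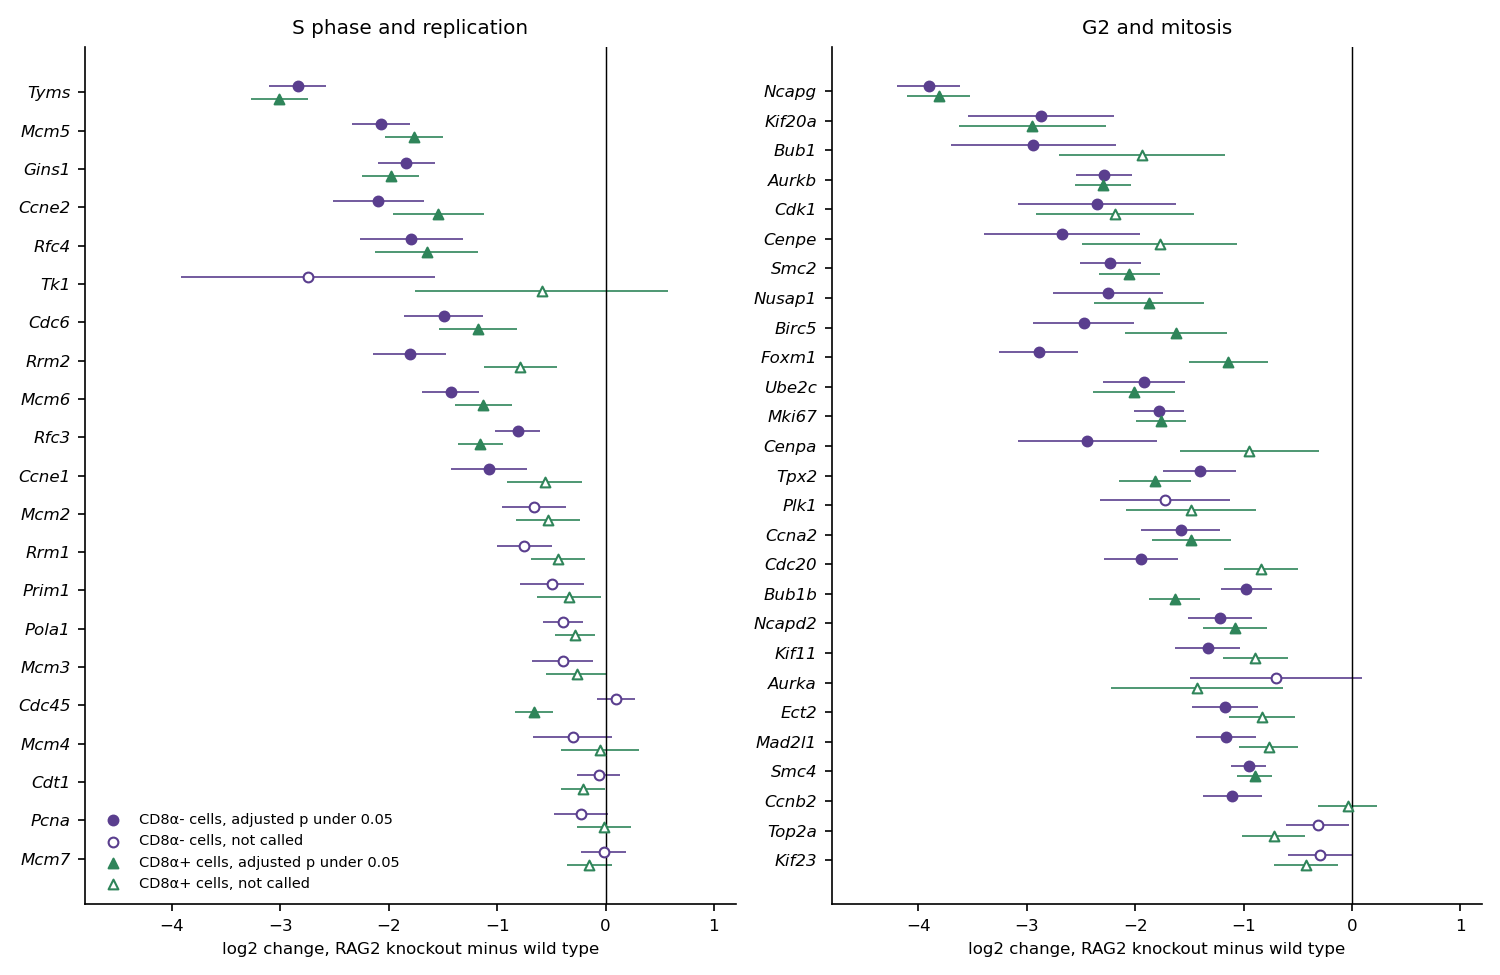
Log2 change of each gene, RAG2 knockout minus wild type (x axis), for S phase and replication genes (left) and G2 and mitosis genes (right), in CD8α- cells (circles) and CD8α+ cells (triangles), with bars of 1 SE from limma; filled symbols have an adjusted p under 0.05. All 27 G2 and mitosis genes lie left of 0 in both subsets, down to -3.90 for Ncapg, although with median centring Top2a, Kif23 and Ccnb2 lay above 0 in 1 or both subsets.

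The levels of single genes follow by role. Values are log2, replicate 1 and then replicate 2 of each group, and every change is knockout minus wild type with its adjusted p from limma.

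Among regulators of mitotic entry, Cdk1, the kinase that starts mitosis, read 9.94 and 9.62 on the wild type CD8α- arrays, 10.29 and 10.62 on the wild type CD8α+ arrays, 6.14 and 8.71 on the knockout CD8α- arrays and 8.56 and 7.97 on the knockout CD8α+ arrays. Its change was -2.35 (SE 0.73, adjusted p = 0.0383) in CD8α- cells and -2.19 (SE 0.73, adjusted p = 0.052) in CD8α+ cells, so it fell in CD8α- cells and missed the threshold in CD8α+ cells. All 4 knockout values lay below all 4 wild type values, with knockout CD8α- replicate 1 the lowest. Ccna2, cyclin A2, read 9.90 and 9.75 on the wild type CD8α- arrays, 9.67 and 9.65 on the wild type CD8α+ arrays, 7.69 and 8.81 on the knockout CD8α- arrays and 8.42 and 7.93 on the knockout CD8α+ arrays. It fell by 1.58 in CD8α- cells (SE 0.36, adjusted p = 0.0137) and by 1.48 in CD8α+ cells (0.0188), with no overlap of the genotypes. Another Ccna2 probe set gave -0.31 and -0.53 and was not called (adjusted p = 0.753 and 0.586 from limma). With the mean of its probe sets Ccna2 was not called in either subset (adjusted p = 0.195 and 0.173 from limma). Foxm1, the forkhead factor that activates G2 genes, read 6.00 and 6.34 on the wild type CD8α- arrays, 5.79 and 6.45 on the wild type CD8α+ arrays, 2.83 and 3.74 on the knockout CD8α- arrays and 5.21 and 4.75 on the knockout CD8α+ arrays. In knockout CD8α- cells it was lower by at least 2.26-fold (change -2.89 (SE 0.37, adjusted p = 0.00181)), and in knockout CD8α+ cells it was 2.21-fold lower (-1.14 (SE 0.37, adjusted p = 0.0467)). The genotypes did not overlap for Foxm1, and both knockout CD8α- arrays lay below 5. Ccnb2, cyclin B2, passed the threshold in CD8α- cells and missed it in CD8α+ cells, with changes of -1.10 (SE 0.27, adjusted p = 0.0171) in CD8α- cells and -0.04 (SE 0.27, adjusted p = 0.92) in CD8α+ cells. Whether the subsets differed in the change of Ccnb2 was tested as an interaction, which gave 1.06 (SE 0.38, adjusted p = 0.571).

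Aurora B and its partners form the chromosomal passenger complex, which corrects kinetochore attachments and guides cytokinesis. Aurkb, its kinase, read 9.22 and 9.03 on the wild type CD8α- arrays, 9.32 and 9.20 on the wild type CD8α+ arrays, 6.64 and 7.03 on the knockout CD8α- arrays and 7.28 and 6.64 on the knockout CD8α+ arrays. It fell in both subsets, by 2.29 (SE 0.26, adjusted p = 0.00128) and 2.30 (0.0015), which is 4.88-fold and 4.91-fold. Birc5, survivin, a subunit of the same complex, stood at 8.98 and 8.78 on the wild type CD8α- arrays, 8.89 and 8.85 on the wild type CD8α+ arrays, 5.62 and 7.19 on the knockout CD8α- arrays and 7.51 and 6.99 on the knockout CD8α+ arrays. Its change was -2.48 (SE 0.47, adjusted p = 0.00683) in CD8α- cells and -1.62 (SE 0.47, adjusted p = 0.0328) in CD8α+ cells, and the genotypes did not overlap. Aurka, the centrosomal Aurora kinase, and Plk1, the Polo-like kinase of mitotic entry, were not called. Their changes were -0.70 and -1.43 for Aurka and -1.73 and -1.49 for Plk1, with SEs of 0.80 and 0.60. For Plk1, but not Aurka, all knockout values lay below all wild type values.

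The spindle checkpoint holds anaphase until all chromosomes are attached. Bub1, one of its kinases, read 9.68 and 9.58 on the wild type CD8α- arrays, 9.53 and 9.65 on the wild type CD8α+ arrays, 5.32 and 8.06 on the knockout CD8α- arrays and 7.97 and 7.34 on the knockout CD8α+ arrays. It fell 7.67-fold in CD8α- cells (-2.94 (SE 0.76, adjusted p = 0.0214)), and missed the threshold in CD8α+ cells (-1.94 (SE 0.76, adjusted p = 0.0847)). Bub1b, BubR1, stood at 10.22 and 10.19 on the wild type CD8α- arrays, 10.20 and 10.32 on the wild type CD8α+ arrays, 9.15 and 9.32 on the knockout CD8α- arrays and 8.94 and 8.30 on the knockout CD8α+ arrays. It fell by 0.98 (SE 0.24, adjusted p = 0.0164) in CD8α- cells and by 1.64 (0.00312) in CD8α+ cells. Mad2l1, the Mad2 subunit of the checkpoint complex, read 10.53 and 10.26 on the wild type CD8α- arrays, 10.42 and 10.33 on the wild type CD8α+ arrays, 8.98 and 9.49 on the knockout CD8α- arrays and 9.92 and 9.30 on the knockout CD8α+ arrays. It changed by -1.16 (SE 0.27, adjusted p = 0.0152) in CD8α- cells, and its value in CD8α+ cells was -0.77 (SE 0.27, adjusted p = 0.0639). For each of these checkpoint genes the knockout arrays lay below all wild type arrays.

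Cdc20 and Ube2c act with the anaphase-promoting complex, a ubiquitin ligase, as activator and conjugating enzyme. Cdc20 read 11.25 and 11.29 on the wild type CD8α- arrays, 11.46 and 11.29 on the wild type CD8α+ arrays, 8.80 and 9.85 on the knockout CD8α- arrays and 10.75 and 10.31 on the knockout CD8α+ arrays. It fell 3.86-fold in CD8α- cells (-1.95 (SE 0.34, adjusted p = 0.00529)) and was 1.79-fold lower without passing the threshold in CD8α+ cells (-0.84 (SE 0.34, adjusted p = 0.0908)). Other Cdc20 probe sets did not all run the same way, and 1 was higher in the knockout by 2.75 and 3.01. That probe set read 2.95 to 3.47 on the wild type arrays and 5.92 to 6.15 on the knockout arrays. It passed the filter through the knockout alone. Ube2c stood at 8.92 and 9.02 on the wild type CD8α- arrays, 9.59 and 9.92 on the wild type CD8α+ arrays, 6.45 and 7.65 on the knockout CD8α- arrays and 7.93 and 7.55 on the knockout CD8α+ arrays. It fell 3.77-fold (-1.92 (SE 0.38, adjusted p = 0.00806)) in CD8α- cells and 4.03-fold (-2.01 (SE 0.38, adjusted p = 0.00762)) in CD8α+ cells. Neither gene showed overlap between the genotypes.

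The condensin complex compacts mitotic chromosomes. Ncapg, one of its regulatory subunits, read 8.84 and 8.06 on the wild type CD8α- arrays, 8.50 and 8.66 on the wild type CD8α+ arrays, 4.42 and 4.67 on the knockout CD8α- arrays and 4.99 and 4.55 on the knockout CD8α+ arrays. It was below 5 on each knockout array, lower by at least 10.9-fold in CD8α- cells (-3.90 (SE 0.29, adjusted p = 0.000427)) and by at least 12.0-fold in CD8α+ cells (-3.81 (SE 0.29, adjusted p = 0.000619)). These were the largest changes of any of the 48 genes. Smc2, an ATPase core subunit, stood at 11.75 and 11.69 on the wild type CD8α- arrays, 11.54 and 11.26 on the wild type CD8α+ arrays, 9.08 and 9.90 on the knockout CD8α- arrays and 9.45 and 9.24 on the knockout CD8α+ arrays. It fell 4.70-fold (adjusted p = 0.00179) and 4.15-fold (0.00268), with SEs of 0.28 on the log2 scale. Ncapd2, another condensin subunit, read 9.54 and 9.16 on the wild type CD8α- arrays, 8.69 and 9.02 on the wild type CD8α+ arrays, 7.73 and 8.53 on the knockout CD8α- arrays and 7.82 and 7.73 on the knockout CD8α+ arrays. Its change was -1.22 (SE 0.30, adjusted p = 0.0168) in CD8α- cells and -1.08 (SE 0.30, adjusted p = 0.0278) in CD8α+ cells, and with the mean of its probe sets it was 0.02 in CD8α+ cells. Smc4, the partner of Smc2, fell by 0.95 (SE 0.16, adjusted p = 0.00493) and 0.90 (0.00682). Top2a, the topoisomerase that untangles sister chromatids, read 11.93 and 11.67 on the wild type CD8α- arrays, 11.71 and 11.79 on the wild type CD8α+ arrays, 11.06 and 11.90 on the knockout CD8α- arrays and 11.17 and 10.88 on the knockout CD8α+ arrays. Its change was -0.31 (SE 0.29, adjusted p = 0.416) in CD8α- cells and -0.72 (SE 0.29, adjusted p = 0.0903) in CD8α+ cells, which did not pass the threshold, and knockout CD8α- replicate 2 lay among the wild type values.

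Motors and organisers of the spindle separate the chromosomes and divide the cell. Kif20a, a kinesin of cytokinesis, read 8.06 and 7.87 on the wild type CD8α- arrays, 8.24 and 8.59 on the wild type CD8α+ arrays, 4.19 and 6.00 on the knockout CD8α- arrays and 6.29 and 4.64 on the knockout CD8α+ arrays. It fell 7.30-fold (-2.87 (SE 0.68, adjusted p = 0.0152)) in CD8α- cells and 7.73-fold (-2.95 (SE 0.68, adjusted p = 0.0153)) in CD8α+ cells, with wide spread between knockout replicates and no overlap. Kif11, the kinesin that pushes spindle poles apart, stood at 7.55 and 7.68 on the wild type CD8α- arrays, 7.31 and 7.31 on the wild type CD8α+ arrays, 5.86 and 6.71 on the knockout CD8α- arrays and 6.64 and 6.19 on the knockout CD8α+ arrays. It changed by -1.33 (SE 0.30, adjusted p = 0.0127) in CD8α- cells, and the value in CD8α+ cells was -0.89 (SE 0.30, adjusted p = 0.0532). Another Kif11 probe set gave -3.65 and -2.68 (adjusted p = 0.0105 and 0.0314 from limma). Tpx2, an activator of Aurora A on the spindle, read 9.11 and 8.70 on the wild type CD8α- arrays, 8.51 and 9.13 on the wild type CD8α+ arrays, 7.18 and 7.82 on the knockout CD8α- arrays and 7.28 and 6.72 on the knockout CD8α+ arrays. It fell in both subsets, with -1.40 (SE 0.34, adjusted p = 0.0161) in CD8α- cells and -1.82 (SE 0.34, adjusted p = 0.00722) in CD8α+ cells. Nusap1, a microtubule-bundling protein, stood at 10.42 and 10.09 on the wild type CD8α- arrays, 9.76 and 9.94 on the wild type CD8α+ arrays, 7.29 and 8.71 on the knockout CD8α- arrays and 8.51 and 7.45 on the knockout CD8α+ arrays. Its change was -2.25 (SE 0.51, adjusted p = 0.0127) in CD8α- cells and -1.87 (SE 0.51, adjusted p = 0.0265) in CD8α+ cells. Ect2, the exchange factor that activates RhoA for cytokinesis, read 9.20 and 9.27 on the wild type CD8α- arrays, 9.24 and 8.71 on the wild type CD8α+ arrays, 7.79 and 8.35 on the knockout CD8α- arrays and 7.84 and 8.45 on the knockout CD8α+ arrays. It changed by -1.17 (SE 0.30, adjusted p = 0.021) in CD8α- cells, against -0.83 (SE 0.30, adjusted p = 0.0684) in CD8α+ cells, which missed the threshold. Kif23, a centralspindlin motor, was not called (-0.30 and -0.42).

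At the centromere, Cenpa, the histone H3 variant that marks it, read 9.33 and 9.64 on the wild type CD8α- arrays, 10.10 and 9.80 on the wild type CD8α+ arrays, 5.91 and 8.17 on the knockout CD8α- arrays and 9.24 and 8.77 on the knockout CD8α+ arrays. It fell 5.44-fold in CD8α- cells (-2.44 (SE 0.64, adjusted p = 0.0223)), while -0.95 (SE 0.64, adjusted p = 0.283) in CD8α+ cells missed the threshold. Cenpe, the kinetochore kinesin, stood at 8.40 and 8.46 on the wild type CD8α- arrays, 8.60 and 9.04 on the wild type CD8α+ arrays, 4.46 and 7.05 on the knockout CD8α- arrays and 7.18 and 6.91 on the knockout CD8α+ arrays. Its change was -2.67 (SE 0.72, adjusted p = 0.0237) in CD8α- cells and -1.77 (SE 0.72, adjusted p = 0.0905) in CD8α+ cells. Another Cenpe probe set gave -1.78 and -2.13 (adjusted p = 0.041 and 0.0244 from limma). Knockout CD8α- replicate 1 had the lowest value of both genes, and for both the genotypes did not overlap. Mki67, which encodes the Ki-67 proliferation antigen, read 12.89 and 12.78 on the wild type CD8α- arrays, 12.75 and 12.72 on the wild type CD8α+ arrays, 10.80 and 11.32 on the knockout CD8α- arrays and 10.79 and 11.17 on the knockout CD8α+ arrays. It fell by 1.78 (SE 0.23, adjusted p = 0.00197) in CD8α- cells and by 1.76 (0.00237) in CD8α+ cells, which is 3.43-fold and 3.39-fold. For Mki67 the 4 wild type arrays lay between 12.72 and 12.89 and the knockout arrays between 10.79 and 11.32.

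**Figure D2:**
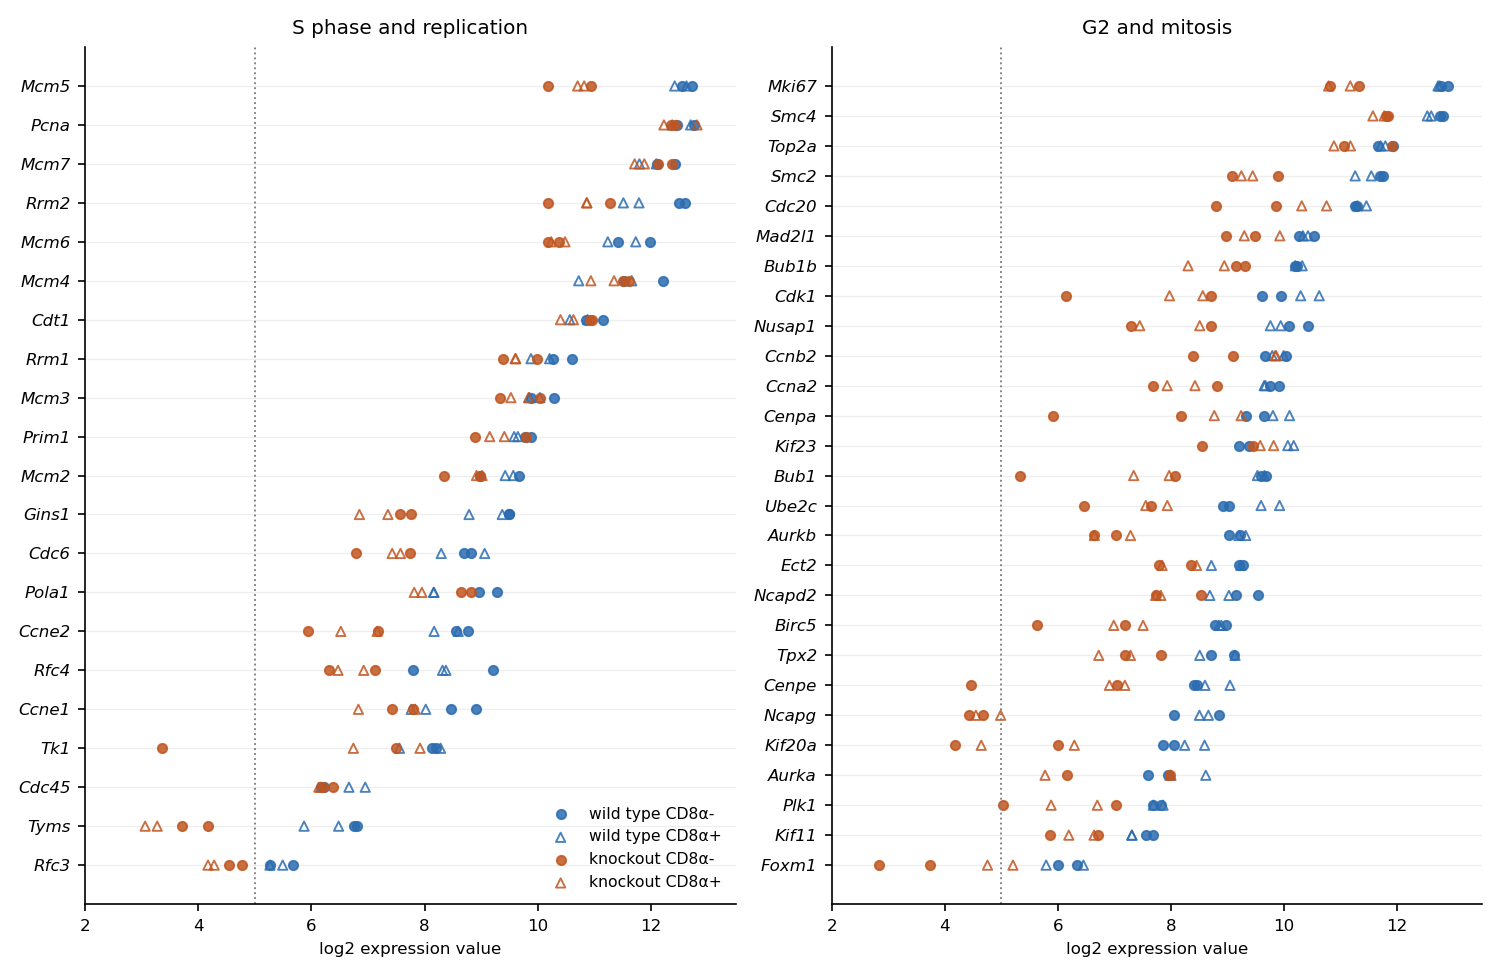
Log2 expression value on each of the 8 arrays (x axis) for the 21 S phase and replication genes (left) and 27 G2 and mitosis genes (right), ordered by wild type level, with blue symbols for wild type, orange for knockout, circles for CD8α- and triangles for CD8α+ cells; the dotted line marks 5, the level of the filter. Orange symbols lie left of blue ones for Ncapg, Mki67 and Gins1, and the colours mix for Pcna, Mcm7 and Cdt1.

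By the probe set that stands for each gene, the S phase genes split. Among the helicase and origin genes, Mcm5 and Mcm6 fell in both subsets, while Mcm2, Mcm3, Mcm4 and Mcm7 were not called in either. The split depends on the probe set, as given at the end. Another probe set of each of Mcm3, Cdt1 and Prim1 was called lower in both subsets, and another of Mcm2 higher in CD8α+ cells. Mcm5 read 12.55 and 12.72 on the wild type CD8α- arrays, 12.63 and 12.42 on the wild type CD8α+ arrays, 10.18 and 10.95 on the knockout CD8α- arrays and 10.82 and 10.71 on the knockout CD8α+ arrays. It fell 4.21-fold (-2.07 (SE 0.27, adjusted p = 0.0019)) and 3.40-fold (-1.76 (SE 0.27, adjusted p = 0.00362)), although another Mcm5 probe set gave 0.48 and 0.51 and was not called. Mcm6 stood at 11.99 and 11.43 on the wild type CD8α- arrays, 11.73 and 11.24 on the wild type CD8α+ arrays, 10.18 and 10.38 on the knockout CD8α- arrays and 10.24 and 10.48 on the knockout CD8α+ arrays. It fell 2.69-fold (-1.43 (SE 0.26, adjusted p = 0.00632)) and 2.18-fold (-1.13 (SE 0.26, adjusted p = 0.0164)), and neither helicase gene overlapped between genotypes. Mcm2 read 9.68 and 8.97 on the wild type CD8α- arrays, 9.43 and 9.57 on the wild type CD8α+ arrays, 8.35 and 8.97 on the knockout CD8α- arrays and 8.92 and 9.02 on the knockout CD8α+ arrays. Its change was -0.66 (SE 0.30, adjusted p = 0.114) in CD8α- cells and -0.53 (SE 0.30, adjusted p = 0.198) in CD8α+ cells, and the genotypes overlapped.

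The remaining MCM genes had changes from -0.40 to -0.02, with SEs from 0.21 to 0.36. Cdc6, which loads the MCM ring, read 8.81 and 8.71 on the wild type CD8α- arrays, 9.06 and 8.29 on the wild type CD8α+ arrays, 6.79 and 7.74 on the knockout CD8α- arrays and 7.57 and 7.43 on the knockout CD8α+ arrays. It fell by 1.49 (SE 0.36, adjusted p = 0.0167) in CD8α- cells and by 1.18 (0.0406) in CD8α+ cells. Gins1, a subunit of the GINS complex that activates the helicase, stood at 9.50 and 9.50 on the wild type CD8α- arrays, 9.37 and 8.79 on the wild type CD8α+ arrays, 7.56 and 7.77 on the knockout CD8α- arrays and 7.35 and 6.85 on the knockout CD8α+ arrays. It fell 3.57-fold (-1.84 (SE 0.26, adjusted p = 0.00266)) and 3.95-fold (-1.98 (SE 0.26, adjusted p = 0.0024)), and both genes separated the genotypes on every array. Cdt1, the licensing partner of Cdc6, was not called (-0.06 and -0.21, SE 0.20). Cdc45, the helicase cofactor, passed the threshold in CD8α+ cells alone (-0.66 (SE 0.18, adjusted p = 0.0262)), and its change there was 0.01 with median centring and 0.05 with the mean of its probe sets.

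At the replication fork, Pcna, the sliding clamp, read 12.77 and 12.46 on the wild type CD8α- arrays, 12.38 and 12.71 on the wild type CD8α+ arrays, 12.36 and 12.43 on the knockout CD8α- arrays and 12.23 and 12.82 on the knockout CD8α+ arrays. Its change was -0.22 (SE 0.25, adjusted p = 0.503) in CD8α- cells and -0.02 (SE 0.25, adjusted p = 0.964) in CD8α+ cells, and the 2 genotypes overlapped. Rfc4, a subunit of the clamp loader, stood at 9.21 and 7.80 on the wild type CD8α- arrays, 8.38 and 8.32 on the wild type CD8α+ arrays, 6.30 and 7.13 on the knockout CD8α- arrays and 6.92 and 6.47 on the knockout CD8α+ arrays. It fell 3.46-fold (-1.79 (SE 0.48, adjusted p = 0.0232)) and 3.14-fold (-1.65 (SE 0.48, adjusted p = 0.0332)). Rfc3, another subunit of the loader, read 5.67 and 5.26 on the wild type CD8α- arrays, 5.49 and 5.27 on the wild type CD8α+ arrays, 4.54 and 4.77 on the knockout CD8α- arrays and 4.17 and 4.28 on the knockout CD8α+ arrays. It lay below 5 on each knockout array, at least 1.38-fold lower (-0.81 (SE 0.21, adjusted p = 0.0205)) and at least 1.30-fold lower (-1.15 (SE 0.21, adjusted p = 0.00664)). With values below 5 set to 5, Rfc3 was not called in either subset (adjusted p = 0.0873 and 0.153 from limma). The loader genes thus separated the genotypes on every array, and the clamp gene did not. Prim1 and Pola1, of the primase-polymerase complex, were not called between genotypes, at -0.49 and -0.34 for Prim1 and -0.39 and -0.28 for Pola1.

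Enzymes of nucleotide supply also gave differing results. Tyms, thymidylate synthase, read 6.76 and 6.81 on the wild type CD8α- arrays, 5.87 and 6.48 on the wild type CD8α+ arrays, 3.72 and 4.17 on the knockout CD8α- arrays and 3.27 and 3.06 on the knockout CD8α+ arrays. It was below 5 on each knockout array, lower by at least 3.45-fold in CD8α- cells (-2.84 (SE 0.26, adjusted p = 0.000714)) and by at least 2.26-fold in CD8α+ cells (-3.01 (SE 0.26, adjusted p = 0.000821)). Rrm2, the small subunit of ribonucleotide reductase that limits its activity, stood at 12.60 and 12.49 on the wild type CD8α- arrays, 11.79 and 11.52 on the wild type CD8α+ arrays, 10.19 and 11.29 on the knockout CD8α- arrays and 10.87 and 10.87 on the knockout CD8α+ arrays. It fell 3.50-fold in CD8α- cells (-1.81 (SE 0.34, adjusted p = 0.00666)), and -0.79 (SE 0.34, adjusted p = 0.108) in CD8α+ cells missed the threshold. Rrm1, the large subunit, was not called (-0.75 and -0.44, SE 0.25). Tk1, thymidine kinase, had the widest replicate spread, with an SE of 1.17 around -2.74 and -0.59, and was not called. Of the cyclin E genes, which drive entry into S phase, Ccne2 read 8.77 and 8.55 on the wild type CD8α- arrays, 8.60 and 8.17 on the wild type CD8α+ arrays, 5.94 and 7.18 on the knockout CD8α- arrays and 6.52 and 7.16 on the knockout CD8α+ arrays. It fell 4.28-fold (-2.10 (SE 0.42, adjusted p = 0.00839)) and 2.91-fold (-1.54 (SE 0.42, adjusted p = 0.0274)) without overlap. Ccne1 changed by -1.07 (SE 0.35, adjusted p = 0.0448) in CD8α- cells, with -0.56 (SE 0.35, adjusted p = 0.243) in CD8α+ cells. Another Ccne1 probe set, below 5 on each knockout array, gave -1.90 and -2.49 (adjusted p = 0.002 and 0.00104 from limma).

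Knockout replicates were not alike. The median of the 27 G2 and mitosis genes was 9.38 and 9.27 on the wild type CD8α- arrays and 9.59 and 9.65 on the wild type CD8α+ arrays. It was 7.18 and 8.35 on the knockout CD8α- arrays and 7.98 and 7.73 on the knockout CD8α+ arrays. For the 21 S phase genes the medians lay between 9.43 and 9.68 in wild type and between 8.83 and 9.02 in the knockout. Knockout CD8α- replicate 2 read higher than replicate 1 for 27 of 27 G2 and mitosis genes (median 0.90) and 17 of 21 S phase genes (0.45), against 4653 of the 8764 genes tested (0.03). Knockout CD8α+ replicate 1 read higher than replicate 2 for 23 of 27 G2 and mitosis genes (median 0.45) and 9 of 21 S phase genes (-0.01), against 3572 of the 8764 (-0.05).

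These same arrays, knockout CD8α- replicate 2 and knockout CD8α+ replicate 1, carried neutrophil transcripts. NK cell markers also summed higher on them than on the other array of each knockout subset, as given below. Of 9 neutrophil markers listed, 8 were measured, and their summed level was 13.03 and 11.60 on these arrays, against 6.13 and 6.63 on the other knockout arrays and 5.83 to 6.34 in wild type. Elane, neutrophil elastase, was below 5 on all arrays, and Mpo read 5.85 on knockout CD8α- replicate 2 and at most 3.11 elsewhere. Ngp, a granule protein of maturing neutrophils, read 11.65 and 10.18 on the 2 arrays with neutrophil transcripts. Without these 2 arrays, 36 genes were lower in the knockout in CD8α- cells and 28 in CD8α+ cells. Without the 2 other knockout arrays, 26 and 22 were lower. The arrays with neutrophil transcripts also had the higher G2 and mitosis median of each knockout pair. These counts therefore cannot show what part neutrophil transcripts have in the cell cycle differences.

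Markers of other cells also moved with genotype. The 6 measured of 7 B cell markers summed to 10.31 to 11.34 in wild type and 7.55 to 8.64 in the knockout. Ms4a1, which encodes CD20, lay between 10.15 and 11.05 in wild type and between 5.81 and 7.62 in the knockout, while Cd79a, Pax5 and Ebf1 were below 5 on all arrays. All 7 plasma cell markers were measured and summed to 12.50 to 12.79 in wild type and 13.36 to 13.69 in the knockout, a sum led by Xbp1, a transcription factor of secretory cells, at 11.84 to 12.51 and 13.34 to 13.68. The antibody genes went the other way: Jchain, the joining chain of secreted antibody, read 9.32 to 10.56 in wild type and 2.23 to 6.12 in the knockout, and Igha, the IgA heavy chain, 8.86 to 9.44 and 2.29 to 3.73. Mzb1 read 5.97 to 7.76 and 3.99 to 4.74, Prdm1 2.71 to 3.38 and 3.37 to 6.42, and Sdc1 and Tnfrsf17 were below 5 on all arrays. The 7 macrophage markers summed to 11.92 to 12.61 in wild type and 12.20 to 13.71 in the knockout, with the complement gene C1qa at 3.32 to 4.46 and 8.46 to 9.97. For NK cells, 5 of 6 markers were measured and summed to 6.23 to 7.76 in wild type and 8.59 to 11.60 in the knockout. The sum was led by the granzyme gene Gzma, with Ncr1 and Prf1 below 5 on all arrays. It was 9.49 and 11.60 on the knockout CD8α- arrays and 10.44 and 8.59 on the knockout CD8α+ arrays. Gzmb and Eomes passed 5 on knockout CD8α- replicate 2 alone, at 6.04 and 5.63. For T cells, 4 of 6 markers were measured and summed to 5.56 to 6.33 in wild type and 4.56 to 4.60 in the knockout. Cd3d lay between 4.22 and 5.56 in wild type and at 2.23 on each knockout array, while Cd3e, Cd3g and Cd247 were below 5 on all arrays. The part of neutrophil, B cell, plasma cell, macrophage, NK cell or T cell transcripts in the cell cycle differences was not tested.

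**Figure D3:**
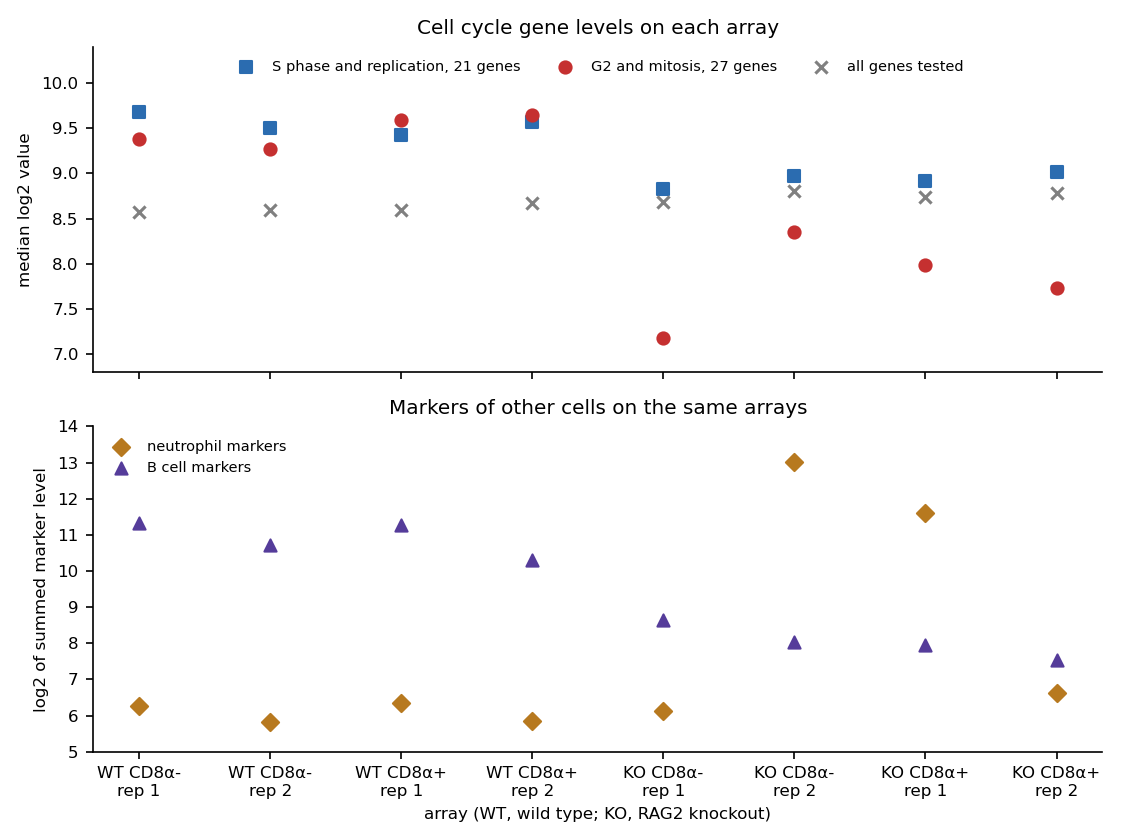
Top, median log2 value per array of the 21 S phase genes (squares), the 27 G2 and mitosis genes (circles) and all tested genes (crosses); bottom, log2 of the summed level of the neutrophil markers (diamonds) and B cell markers (triangles) on the same arrays. The G2 and mitosis median is 7.18 on knockout CD8α- replicate 1 and is 8.35 on replicate 2, which has a neutrophil sum of 13.03.

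Between the subsets, cell cycle genes differed little in wild type cells. Of the 48, 1 was lower in CD8α+ than in CD8α- cells and 0 were higher, whereas 7.87% of all genes tested were lower, 9.23% were higher and 17.1% differed in either direction. At an unadjusted p under 0.05 there were 4, and limma-trend called 1. The called gene was Pola1, the catalytic subunit of DNA polymerase alpha, which read 9.28 and 8.96 on the wild type CD8α- arrays, 8.17 and 8.16 on the wild type CD8α+ arrays, 8.83 and 8.64 on the knockout CD8α- arrays and 7.82 and 7.95 on the knockout CD8α+ arrays. It was lower in CD8α+ cells in wild type (change -0.96 (SE 0.18, adjusted p = 0.0124)) and in the knockout (-0.85 (SE 0.18, adjusted p = 0.0176)). The subsets did not overlap in either genotype. The wild type call for Pola1 was lost when wild type CD8α- replicate 1 was left out (adjusted p = 0.0835) and when either wild type CD8α+ array was (0.0555 without replicate 1, 0.0648 without replicate 2).

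In knockout cells, 3 of the 48 genes were higher in CD8α+ than in CD8α- cells and 1 (Pola1) was lower, whereas 11.1% of all genes tested were higher, 10.7% lower and 21.8% called in either direction. The genes that rose were Foxm1 (1.70 (SE 0.37, adjusted p = 0.0172)), Cdc20 (1.21 (SE 0.34, adjusted p = 0.045)) and Ccnb2 (1.11 (SE 0.27, adjusted p = 0.027)), all of G2 and mitosis, and Foxm1 was below 5 on both CD8α- arrays. With values below 5 set to 5, the change of Foxm1 was 0.10 and not called (adjusted p = 0.829 from limma). The median change was 0.22 over G2 and mitosis genes and -0.06 over S phase genes, against 0.02 over all genes tested. With 1 array left out at a time, the G2 and mitosis median ran from -0.29 (without knockout CD8α- replicate 1) to 0.69 (without knockout CD8α- replicate 2), and the S phase median from -0.38 to 0.18 without the same arrays, so neither kept its sign. The counts also rested on single arrays. Without knockout CD8α- replicate 2, 12 genes were called (11 higher, 1 lower). Without knockout CD8α- replicate 1, 0 were called, and without either knockout CD8α+ array 1 was. Without either wild type CD8α+ array 2 were called. Without the 2 arrays with neutrophil transcripts 9 genes were higher, and without the 2 lacking them 0 were called.

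**Figure D4:**
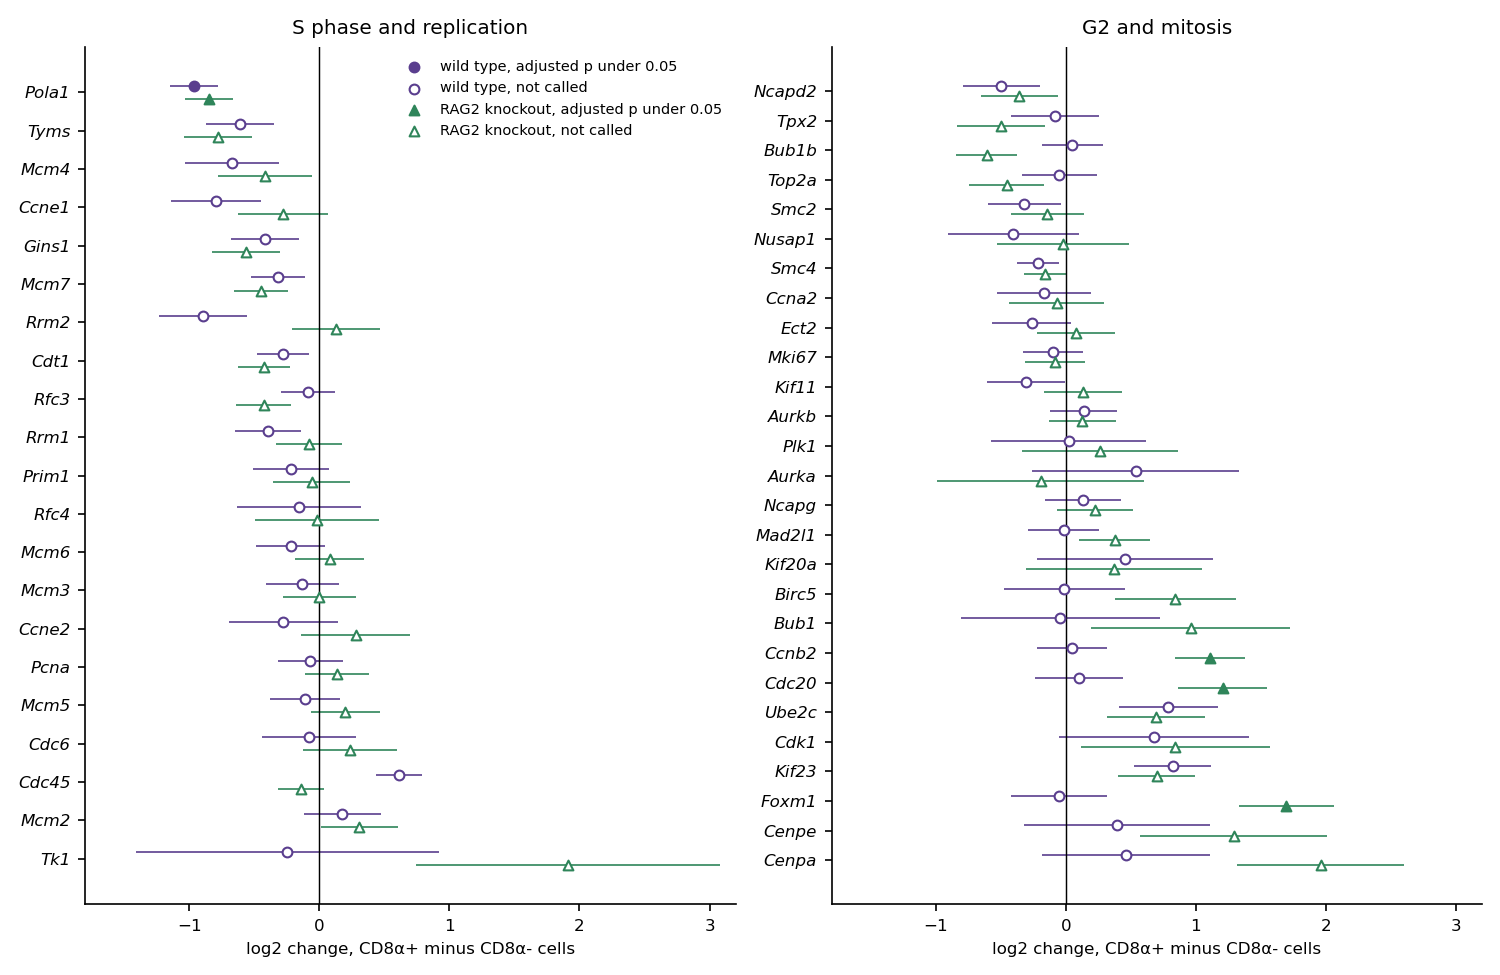
Log2 change of each gene, CD8α+ minus CD8α- cells (x axis), in wild type (circles) and RAG2 knockout (triangles), with bars of 1 SE from limma; filled symbols have an adjusted p under 0.05. Most symbols are open, Pola1 lies left of 0 in both genotypes, and Foxm1, Cdc20 and Ccnb2 are filled to the right in the knockout.

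Whether the knockout changed the subsets differently was tested as the interaction of genotype and subset, in which offsets shared by the arrays of a genotype cancel. Of the 48 genes, 0 were called by limma or limma-trend, 3 had an unadjusted p under 0.05, and 0.24% of all genes tested were called. These 3 were Foxm1 (1.75, SE 0.52, adjusted p = 0.454), Ccnb2 (1.06, SE 0.38, 0.571) and Cdc45 (-0.76, SE 0.25, 0.522). The median was 0.16 over each of the S phase and the G2 and mitosis genes, and neither kept its sign. Without knockout CD8α- replicate 1 they were -0.13 and -0.26, and without knockout CD8α- replicate 2 they were 0.40 and 0.65. Without wild type CD8α- replicate 1 the S phase median was -0.05. The counts of 33 and 23 called genes in CD8α- and CD8α+ cells are therefore not shown to differ gene by gene.

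A further list of 83 cell cycle genes, not among the 48, held 73 that were tested. In CD8α- cells 6 were higher and 30 lower in the knockout, and in CD8α+ cells 6 were higher and 25 lower, with medians of -0.53 and -0.51, whereas 23.4% and 20.8% of all genes tested were higher. The 5 that rose in both subsets were Cdc25a, the phosphatase that activates CDK2, E2f5, Fen1, the flap endonuclease of lagging strands, Bub3 and Btg2, an antiproliferative gene. Cdc25a read 6.49 and 6.35 on the wild type CD8α- arrays, 7.48 and 6.70 on the wild type CD8α+ arrays, 8.95 and 8.49 on the knockout CD8α- arrays and 9.37 and 9.54 on the knockout CD8α+ arrays. Its change was 2.30 (SE 0.29, adjusted p = 0.00181) in CD8α- cells and 2.36 (SE 0.29, adjusted p = 0.00205) in CD8α+ cells, so a gene of S phase entry was higher in the knockout on each array. Fen1 stood at 11.13 and 11.22 on the wild type CD8α- arrays, 11.12 and 11.05 on the wild type CD8α+ arrays, 12.23 and 12.80 on the knockout CD8α- arrays and 12.92 and 12.59 on the knockout CD8α+ arrays. It rose by 1.34 (SE 0.23, adjusted p = 0.00523) and 1.67 (SE 0.23, adjusted p = 0.0029). E2f5, Fen1 and Bub3 were not called with the mean of their probe sets. Centred on the array median, 18 and 19 of the 73 were higher and 17 and 10 lower.

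Among those that fell were 2 inhibitors of cyclin-dependent kinases. Cdkn2b, which encodes an inhibitor of CDK4 and CDK6, read 9.73 and 9.67 on the wild type CD8α- arrays, 8.34 and 8.63 on the wild type CD8α+ arrays, 5.03 and 5.28 on the knockout CD8α- arrays and 6.60 and 5.25 on the knockout CD8α+ arrays. Its change was -4.54 (SE 0.40, adjusted p = 0.000646) in CD8α- cells and -2.56 (SE 0.40, adjusted p = 0.00421) in CD8α+ cells. Cdkn1b, which encodes the inhibitor p27, stood at 10.19 and 10.43 on the wild type CD8α- arrays, 10.10 and 9.43 on the wild type CD8α+ arrays, 8.66 and 8.08 on the knockout CD8α- arrays and 7.32 and 7.87 on the knockout CD8α+ arrays. Its change was -1.94 (SE 0.32, adjusted p = 0.0045) in CD8α- cells and -2.16 (SE 0.32, adjusted p = 0.00348) in CD8α+ cells. In neither gene did the genotypes overlap. The kinase inhibitor genes Cdkn1a (-0.18 and -0.69), Cdkn2c (-0.62 and -0.14) and Cdkn2d (-0.23 and 0.25) were not called between genotypes. Dut, which keeps uracil out of DNA, fell by 2.27 (SE 0.28, adjusted p = 0.00159) and 2.11 (0.00237), and Pold1, the catalytic subunit of polymerase delta, by 2.05 (0.20, 0.000908) and 1.53 (0.00241).

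Between wild type subsets, 2 of the 73 tested genes of this further list were higher in CD8α+ cells and 7 lower. That is 12.3%, against 17.1% of all genes tested. Between knockout subsets 4 were higher and 4 lower, which is 11%, against 21.8% of all genes tested. Those called in both genotypes were Ccnd1, Ccnd2, E2f2 and Cdkn1a, which act at the G1 to S step. Ccnd2, cyclin D2, read 10.53 and 10.89 on the wild type CD8α- arrays, 8.12 and 8.26 on the wild type CD8α+ arrays, 11.87 and 10.57 on the knockout CD8α- arrays and 8.12 and 7.80 on the knockout CD8α+ arrays. It was lower in CD8α+ cells, with changes of -2.51 (SE 0.40, adjusted p = 0.00553) in wild type and -3.26 (SE 0.40, adjusted p = 0.0017) in the knockout. Ccnd1, cyclin D1, changed by -1.56 (SE 0.22, adjusted p = 0.00359) and -1.69 (SE 0.22, adjusted p = 0.00234), and E2f2 by -1.95 (SE 0.45, adjusted p = 0.0241) and -2.48 (SE 0.45, adjusted p = 0.00831). Cdkn1a, which encodes the kinase inhibitor p21, lay between 7.30 and 8.00 in CD8α- cells and between 8.35 and 9.45 in CD8α+ cells over both genotypes. It was higher in CD8α+ cells by 1.72 (SE 0.30, adjusted p = 0.00867) and 1.21 (SE 0.30, adjusted p = 0.0305). In each genotype the subsets did not overlap for Ccnd1, Ccnd2, E2f2 or Cdkn1a. The 2 genotypes give separate arrays for this comparison.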

How the data were processed

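Total RNA from sorted splenic dendritic cells was read on 8 Affymetrix arrays. The authors deposited 1 log2 expression value per probe set and array, made with GCRMA and affy for wild type and with GCRMA for knockout arrays, per the submitters' processing notes. Software versions, and whether all arrays were normalized jointly, were not given in the sources used here. Precision is limited by the number of arrays.

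Values were used as deposited. Probe sets were named from the array annotation (34958 of 45101 with 1 gene, 932 with several, which were not named). Probe sets that reached a log2 value of 5 on 2 or more of the 8 arrays were kept, and the brightest by mean stood for its gene. A 4-group linear model (limma 3.58.1 in R 4.3.3, with eBayes and 4 residual degrees of freedom) gave 5 comparisons, 2-sided, with Benjamini-Hochberg adjustment over 8764 genes, and it was tested on simulated data. For a gene below 5 on each array of its lower group, the fold was taken against 5 and is a lower bound.

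The members and gene lists were chosen with earlier results of these data known. Values per array are given for the 30 members with the largest called change and for Mki67, Top2a, Pcna, Mcm2 and Cdk1. Those of Pola1, and the examples of the further cell cycle list, were added after their values were seen. The 48 members stand without a p for the list. The correlation of replicate differences between groups ran from -0.146 to 0.112, so equal replicate numbers were not taken as pairs. Other settings were quantile normalization, median centring, no filter, values below 5 set to 5, an offset of 16 added before the log, the mean of probe sets, limma-trend with robust eBayes, the compared groups alone, the replicate number as a block, and leaving out each array. Leaving out the 2 knockout arrays with or the 2 without neutrophil transcripts, centring on tested genes outside the cell cycle lists, and fitting each probe set on its own were chosen after seeing the data. Promoters came from a RefSeq table on GRCm38.p6. The plots used matplotlib 3.10.9 (Python 3.11.15).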

Additional observations from a re-analysis of the deposited data

Results flagged for a closer look

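Cdc45, the helicase cofactor, had subset changes of opposite sign in the 2 genotypes, neither of which was called. It read 6.22 and 6.17 in wild type CD8α- cells and 6.66 and 6.95 in wild type CD8α+ cells. That change was 0.61 (SE 0.18, adjusted p = 0.0568 from limma). In the knockout it read 6.38 and 6.20 in CD8α- cells and 6.17 and 6.13 in CD8α+ cells. There the change was -0.14 (SE 0.18, adjusted p = 0.614 from limma). The arrays of the subsets did not overlap in either genotype, though in the knockout the nearest values were 6.20 and 6.17. The difference between the 2 changes was -0.76 on the log2 scale, and its test as an interaction in limma did not pass the threshold (adjusted p = 0.522). Another Cdc45 probe set was higher in the knockout by 0.78 in CD8α- cells and 0.76 in CD8α+ cells (adjusted p = 0.0103 and 0.0119 from limma). It read 4.93 to 4.98 on the wild type arrays and 5.68 to 5.76 on the knockout arrays, and passed the filter through the knockout alone.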

How the results depend on the processing

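With median centring, the members called lower in the knockout went from 33 to 19 in CD8α- cells, where 3 were called higher, and from 23 to 11 in CD8α+ cells. Under the other settings that keep all arrays or leave out a pair, 24 to 36 were lower in CD8α- cells. The medians between genotypes kept their sign, except that of the S phase genes in CD8α+ cells, which was 0.09 with median centring. Medians between subsets did not all keep theirs: with 1 array left out, the G2 and mitosis median between wild type subsets ran from -0.11 to 0.08. In CD8α+ cells Cdc45 turned to 0.0146 with median centring and 0.0524 with the mean of probe sets, and Ncapd2 to 0.0231 with the mean of probe sets. Between the knockout subsets 1 member was called without a filter, 0 with the compared groups alone, 9 without the 2 knockout arrays with neutrophil transcripts and 0 without the 2 lacking them. Between the wild type subsets 2 were called with values below 5 set to 5, 2 with the mean of probe sets, 3 with the compared groups alone and 3 without either pair of knockout arrays. Leaving out 1 array at a time gave 11 to 37 members in CD8α- cells, 13 to 32 in CD8α+ cells, 0 to 3 between wild type subsets, 0 to 12 between knockout subsets and 0 for the interaction. The lone array of a group is then assumed to vary like the other groups. The causes were not tested.

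With the replicate number as a block, 33, 22, 1 and 3 members were called in CD8α- cells, in CD8α+ cells, between wild type and between knockout subsets, and 59 of 61 calls were kept, the exceptions being Cdc20 between knockout subsets (adjusted p = 0.064) and Cdc6 in CD8α+ cells (0.0585). Over all genes, counts moved by more than 1.5 times to 5106 in CD8α+ cells with median centring (4660 higher, 446 lower, against 1821 and 1409). Without a filter they were 10923 and 10677 between genotypes and 1226 between knockout subsets. Those are counts over all 18194 named genes instead of 8764, so they are not on the same scale. They also moved to 818 between knockout subsets with these groups alone. For the interaction they moved to 3 with the block and 11 with limma-trend, against 21.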

Other observations

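Several members have probe sets that gave different results. Of the 33 members called lower in knockout CD8α- cells, 17 had another probe set past the filter, and in 12 all of these went the same way. Mcm5, Cdc20, Rrm2, Ncapd2 and Smc2 were the others. Of the 23 called in CD8α+ cells, 13 had another, and 10 agreed in direction throughout.

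Among members not called, other probe sets did pass the threshold when each was fitted on its own in limma. Prim1 was lower in the knockout by -2.08 in CD8α- cells and -1.75 in CD8α+ cells (adjusted p = 0.00103 and 0.00177). Top2a gave -1.64 and -1.95 (0.0111 and 0.00676), Kif23 -1.53 and -2.41 (0.0156 and 0.00365), and Mcm3 -1.20 and -1.47 (0.0246 and 0.0131). Cdt1 was lower in the knockout in both subsets, by -1.16 in CD8α- cells (adjusted p = 0.0115, and 0.02 in CD8α+ cells). Mcm2 went the other way, with 0.55 (0.209) and 1.38 (0.0165). For Rrm2, one further probe set fell by 2.91 and 1.57 (0.00164 and 0.0125), whereas another gave 0.49 and 0.95 (0.244 and 0.0501). The probe sequences were not analysed here.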
